A study of Saccharomyces cerevisiae with 8 samples.

Results

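Binding events of MCM2-7 and ORC that lay within 10 kb of a chromosome end were collected from all 6 ChIP-Exo event lists of Saccharomyces cerevisiae, an event being the single base at which the caller centred a footprint. They numbered 641 of 9293 events, and joining events of all lists over gaps of up to 400 bp placed them at 23 of 352 loci, called terminal loci here. The lists cover MCM2-7 in G1-phase, ORC in G1-phase and ORC in G2-phase, with 2 biological replicates each. All cells were of the W303 background and carried a FLAG tag at an endogenous gene, Mcm4-Flag for MCM2-7 (strain YC779) and Orc2-Flag for ORC (strain YC795), so that 1 strain stands for each protein. They were precipitated with an anti-FLAG antibody after arrest with alpha-factor, the mating pheromone that holds cells in G1, or with nocodazole, which depolymerises microtubules and holds cells in G2/M. ORC lists from S-phase were not analysed here. No list of an untagged strain was used here, so no background level is available.

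ORC is the origin recognition complex, which binds the ARS consensus sequence, the conserved T-rich core of yeast origins (autonomously replicating sequences, ARS). In G1-phase it loads the MCM2-7 helicase as a double hexamer around the DNA, and in G2-phase new loading is blocked. Yeast chromosomes end in telomeric repeats, next to which every end carries a core X element and some ends carry in addition a longer Y' element, a repeat that encodes a helicase of the YRF1 family. Both kinds of element contain an ARS, and subtelomeric DNA is packed in chromatin silenced by the Sir proteins. Subtelomeric origins are known to fire late or to be replicated passively. As these elements are copies of each other, short reads from them can match several ends.

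The terminal loci fell into 3 classes by the telomeric regions of the RefSeq annotation of R64. Core X elements, at the inner border of the telomeric region, held 15 loci. The Y' class held 2 loci, ARS200 at the left end of chromosome II and ARS1001 at the left end of chromosome X. The remaining 6 loci lay further inside, outside the telomeric region. Sequences of 61 bp around the ARS consensus match are given below for the loci that stood highest or lowest in the lists or that differed between the proteins, and for ARS802, which was picked after its values were seen. The 11 bp match is in capitals, each sequence is read 5′ to 3′ on the strand of its match, and sequences and coordinates are of R64 (RefSeq), which is the sequence of strain S288C and not of W303. The X-element loci come first, so that their shared sequence can be seen.
ARS902: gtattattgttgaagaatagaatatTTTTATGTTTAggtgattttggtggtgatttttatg
ARS1002: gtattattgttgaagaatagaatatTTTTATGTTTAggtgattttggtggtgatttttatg
ARS824: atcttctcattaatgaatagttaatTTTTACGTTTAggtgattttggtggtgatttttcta
ARS1632: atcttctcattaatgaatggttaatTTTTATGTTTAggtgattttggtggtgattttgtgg
ARS736: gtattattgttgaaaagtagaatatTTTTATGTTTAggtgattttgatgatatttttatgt
ARS802: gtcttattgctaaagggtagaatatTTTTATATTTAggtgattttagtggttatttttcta
ARS1001: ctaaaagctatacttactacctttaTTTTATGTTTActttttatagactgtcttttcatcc
ARS200: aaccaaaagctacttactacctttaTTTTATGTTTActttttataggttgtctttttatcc
ARS503: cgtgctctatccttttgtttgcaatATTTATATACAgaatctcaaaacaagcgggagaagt
ARS103: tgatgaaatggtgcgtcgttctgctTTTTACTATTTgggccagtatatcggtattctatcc
ARS1024: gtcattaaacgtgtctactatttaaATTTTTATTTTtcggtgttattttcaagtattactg
TEL01L 6212: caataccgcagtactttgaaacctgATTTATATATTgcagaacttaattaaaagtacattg
TEL09R 6934: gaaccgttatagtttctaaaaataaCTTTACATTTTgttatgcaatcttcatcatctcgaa

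Of these windows, ARS902 lies at chrIX:7711-7771 on the minus strand, ARS1002 at chrX:7694-7754 on the minus strand, ARS824 at chrVIII:556118-556178 on the plus strand, ARS1632 at chrXVI:942409-942469 on the plus strand and ARS736 at chrVII:1083648-1083708 on the plus strand. The Y' loci lie at chrX:246-306 on the plus strand for ARS1001 and at chrII:56-116 on the plus strand for ARS200. Outside the telomeric regions, ARS802 lies at chrVIII:7718-7778 on the minus strand, ARS503 at chrV:6683-6743 on the plus strand, ARS103 at chrI:8183-8243 on the minus strand and ARS1024 at chrX:737174-737234 on the minus strand. The annotated ARS503 spans chrV:6378-6453, 163 bp from the nearest event. The locus and window named ARS503 here therefore lie beside that ARS and not in it. The 2 loci without an annotated ARS within 500 bp are named by their end and their distance from it in bp, TEL01L 6212 at chrI:6555-6615 on the plus strand and TEL09R 6934 at chrIX:432610-432670 on the plus strand. A further 2 loci named this way, TEL13L 6124 and TEL16L 6972, belong to the X-element class. All but 2 of the 23 loci were intergenic. ARS103 lay inside SEO1, which encodes a putative permease, and ARS523 lay inside YER188C-A. Among the other 329 loci, 6.08% lay inside a gene.

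A full match to the 11 bp ARS consensus (searched on both strands, within 150 bp of the locus anchor) was present at 15 of 15 X-element loci and at 18 of 23 terminal loci. It was present at 34.3% of the other loci and at 37.2% of all loci. In all 15 X elements the centre of the match lay 43 bp inside the inner border of the telomeric region, with the T-rich strand running toward the chromosome end, whereas 48.9% of the other loci had their best match in that direction. The letters TTTTATGTTTA were shared by 14 of the 15, and ARS824 differed from them. Between pairs of X-element windows the 61 bp were identical at a median of 88.5% of positions, with a range from 65.6 to 100% over 105 pairs, as against 36.1% for the pairs of terminal loci outside that class. Both Y' loci carried the same 11 letters with other flanks, were 82.0% identical to each other, and pointed away from the end. ARS802 lies outside the annotated telomeric region, yet its window was identical to the X-element windows at a median of 83.6% of positions, while the other 5 loci outside telomeric regions reached medians of 24.6 to 39.3%. None of the X-element windows of 301 bp held TTAGGG, the site of the subtelomeric factor Tbf1, or GGTGTG, which occurs in yeast telomeric repeats, on either strand; these were present in 5.40 and 4.83% of all loci. The site of Abf1, a general regulatory factor known to bind X elements and some origins, was matched in 1 of the 15, as against 3.41% of all loci. These windows were centred on the locus anchor, the median position of first-listed ORC events, and so cover different parts of the X element. The match was in ARS902, with its anchor at position 7630 and its consensus centre at 7741. ARS1002, identical over 201 bp around the consensus, had 7708 and 7724 and no match. These counts therefore do not show which sites whole X elements hold.

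The same consensus match was present at ends without events. All 32 ends had a full match 42 to 45 bp inside the border of the telomeric region, but X-element events were listed at 15 ends. Of the 17 ends that carry a Y' element 11 had X-element events, and of the 15 ends without a Y' element 4 did. The borders of TEL12L and TEL12R lie beyond 10 kb from the end, and their X elements had no event either, the nearest being 39883 and 4381 bp away. At TEL05L the full match lies inside the annotated ARS503, and the nearest event, which belonged to the locus named after it, was 185 bp from the match. The share of 40 bp words around the match that occur once in R64 was a median of 38.3% at the 15 ends with X-element events and 53.1% at the 17 ends without them, and reached at least 90% at 4 ends, all of them without X-element events. Whether low uniqueness played a part in which ends were listed was not tested.

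**Figure D1:**
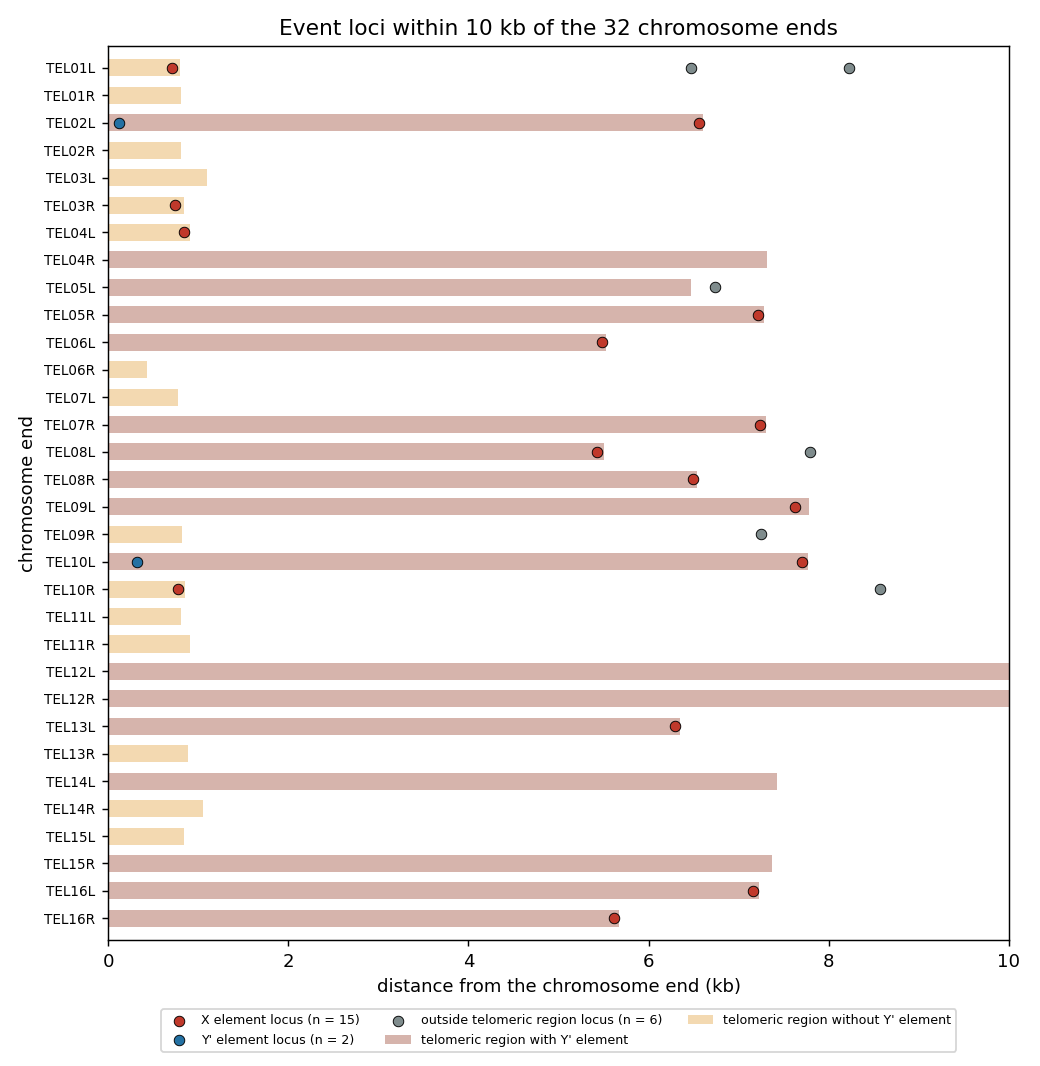
Distance of the 23 terminal loci from the chromosome end (x axis, kb) at the 32 chromosome ends (y axis). Bars show the annotated telomeric region up to 10 kb, by whether it holds a Y' element, and points show loci by class. The 15 X-element points sit at the inner border of their bars, and 15 ends have no point.

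Of 27 annotated ARS within 10 kb of an end, 19 had an event within 500 bp, as against 82.8% of the 325 annotated ARS elsewhere. Of 14 PAU genes (seripauperins, cell wall mannoproteins) within 10 kb of an end, 7 lay at ends with a terminal locus, as did 6 of 10 COS genes (membrane proteins of endosomal sorting) and 3 of 8 YRF1 genes (the Y' helicases). Terminal loci were found at 17 of the 32 ends. The event nearest to the limit from inside was 8748 bp from the end, at ARS1024. The next one beyond it was 10352 bp from the end, on chromosome III, and no event lay between these distances. The outer event lay nearer to the limit of 10 kb than the joining gap of 400 bp, so the limit was not clear of events on its outer side. Among all 352 loci, 346 spanned less than 450 bp. The lists thus appear to hold events in short windows only, although no source states this, and an end without a listed event cannot be told apart from an end that was not listed.

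All 23 terminal loci had events in all 6 lists, as did 90.6% of the other loci. The numbers of events within 10 kb of an end were 122 of 1982 and 110 of 1723 for MCM2-7 in G1 (replicates 1 and 2), 94 of 1170 and 101 of 1379 for ORC in G1, and 150 of 2178 and 64 of 861 for ORC in G2. These shares ran from 6.16% (95% Wilson interval 5.18 to 7.30) in MCM2-7 replicate 1 to 8.03% (6.61 to 9.73) in ORC G1 replicate 1, and the intervals cover counting error only. The terminal 10 kb make up 2.65% of the nuclear genome. Events per kb were higher there than elsewhere in 6 of 6 lists, by 1.47 ± 0.155 (SD, n = 6 lists) on the log2 scale (exact two-sided sign-flip permutation test over lists, p = 0.03125, the smallest that 6 lists allow, and 0.125 after adjustment over the 4 measures tested in this way). The lists share 1 set of loci, of which 23 of 352 were terminal, and all 23 had events in every list. The 6 lists could therefore hardly differ in direction, and this p-value does not measure binding near ends. With events kept only where at least 90% of the surrounding 40 bp words are unique in R64, the log2 value turned to -1.28, with 4 of the 23 terminal loci left in all lists. Of these, 3 (TEL01L 6212, ARS103 and ARS802) lie outside telomeric regions and 1 (ARS102, with 9 events left) is an X element, so the value mostly describes another class. The unique share was a median of 44.8% at X-element loci, 50.2% over all terminal loci and 100% at the other loci.

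As the score of an event is capped at 1000 and many events reach the cap, the order of the deposited lists was used to rank the loci. The sources used here do not state what sets this order, which departs from the score in places. In MCM2-7 replicate 1, an ARS103 event with score 897 at line 1137 precedes an ARS102 event with score 1000 at line 1149. The place of a locus is the percentile of its first-listed event among the loci of that list, where 100 is the locus listed first. A high place is a position in the list and not a measured strength of binding. The median place of terminal loci was 78.6 and 72.2 in the MCM2-7 lists, 63.9 and 84.3 in the ORC G1 lists, and 47.9 and 39.6 in the ORC G2 lists. Other loci had medians of 48.1 to 50.8 in the 6 lists. Terminal loci therefore stood above the other loci in all 4 G1 lists, by 14.9 to 36.2 places, and below them in both G2 lists, by 2.58 and 11.1 places. This is a description of members that were picked with results of these data known. With the percentile of the score itself, which ties all loci at the cap, the mean difference over the lists went from 15.2 to -2.24 places.

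**Figure D2:**
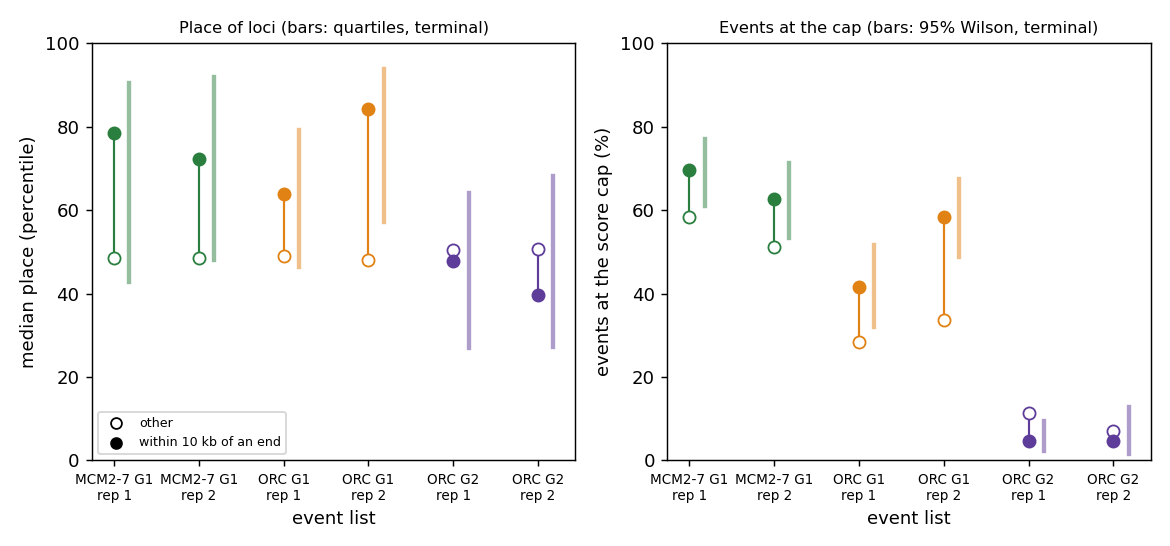
Left, median place of loci (percentile, 100 = listed first) and right, events at the score cap (%) in the 6 lists, for events or loci within 10 kb of an end (filled) and elsewhere (open). Bars are quartiles of the terminal loci on the left and 95% Wilson intervals of the terminal share on the right. Filled points lie above open points in the 4 G1 lists and below them in the 2 G2 lists, in both panels.

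The share of events at the cap showed the same order. In the MCM2-7 lists 69.7 and 62.7% of terminal events reached it, against 58.4 and 51.2% of other events. In the ORC G1 lists it was 41.5 and 58.4% against 28.3 and 33.6%, and in the ORC G2 lists 4.67 and 4.69% against 11.4 and 7.15%. Over the 6 lists the difference was 8.58 ± 11.5 percentage points (SD, exact two-sided sign-flip permutation test, p = 0.125, adjusted 0.167), so that the cell cycle phases differed in sign and the mean did not stand apart from the spread between lists. The 95% Wilson intervals of terminal and other events, which cover counting error only, overlapped in MCM2-7 replicate 2 (53.4 to 71.2% against 48.8 to 53.6%) and in ORC G2 replicate 2 (1.61 to 12.9% against 5.56 to 9.15%), and did not overlap in the remaining 4 lists. They count each event as separate, although the terminal events come from 23 loci, so they may be too narrow.

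Median places differed between the 3 classes, while places of single loci overlapped. X-element loci had median places of 84.6 and 89.1 for MCM2-7, 65.0 and 88.1 for ORC in G1, and 49.9 and 43.3 for ORC in G2. The 6 loci outside telomeric regions had medians of 18.4 and 11.7, 33.7 and 15.4, and 12.03 and 33.7 in the same order. X-element loci were above these in 6 of 6 lists, by 49.2 ± 27.0 places (SD). They were above the loci of the rest of the genome in 4 of 6 lists, by a mean of 20.8 ± 21.3 places. The 6 loci outside telomeric regions were below the loci of the rest of the genome in 6 of 6 lists, by 28.4 ± 9.90 places. The unique share of the words around an event was also higher in the second class, with medians of 59.9 to 100% by list against 32.4 to 49.1% for X elements, and its part in the difference was not tested. Of the X elements, 4 (ARS102, ARS736, ARS824 and ARS1632) have 61 bp windows with no second copy of up to 3 mismatches in R64. Their median places were 70.9 and 72.6 for MCM2-7, 90.7 and 93.8 for ORC in G1, and 59.3 and 77.1 for ORC in G2, above the other loci of the genome in all 6 lists. The 11 X elements with copies had medians of 88.0 and 89.1, 63.9 and 87.0, and 49.9 and 39.6.

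**Figure D3:**
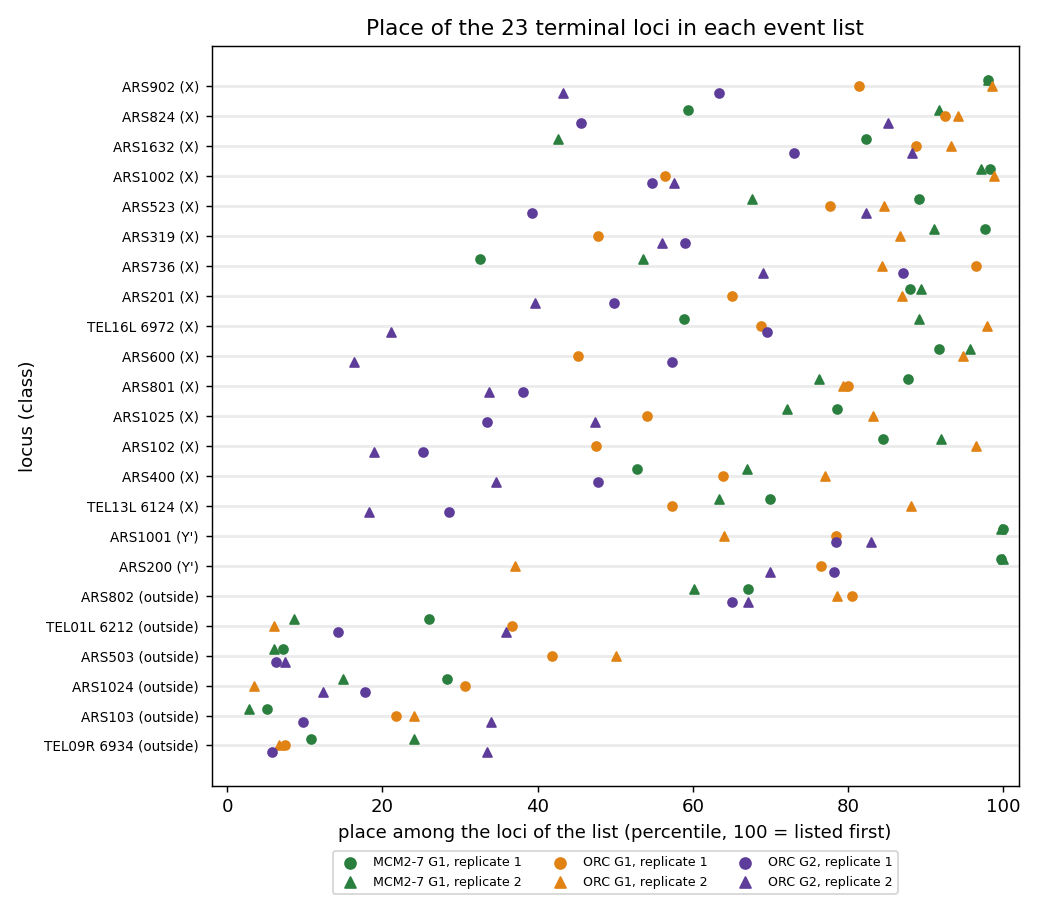
Place of each terminal locus (y axis, class in brackets) in the 6 event lists (x axis, percentile, 100 = listed first). Colours stand for the protein and phase, and circles and triangles for replicates 1 and 2. Both Y' loci sit at 99.7 to 100 for MCM2-7, and 5 of the 6 loci outside telomeric regions sit at 50.1 or lower in every list.

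The Y' loci stood first for the helicase. ARS1001, which spans positions 42 to 388 of chromosome X, was listed first in MCM2-7 replicate 1 and second in replicate 2, with places of 100 and 99.7. For ORC its places were 78.5 and 64.1 in G1 and 78.5 and 83.0 in G2. It thus stood lower for ORC than for MCM2-7 in every list, and its higher G1 place equalled its lower G2 place. ARS200, at positions 116 to 195 of chromosome II, was listed second and first for MCM2-7, with places of 99.7 and 100. Its ORC places were 76.5 and 37.1 in G1 and 78.2 and 70.0 in G2. ARS1001 had 1 event in each MCM2-7 list and 3 to 10 events in the ORC lists. The MCM2-7 event lay 54 and 42 bp downstream of the consensus centre, while the first-listed ORC events lay 29 and 28 bp downstream in G1 and 56 bp in both G2 lists. At ARS200 the first-listed MCM2-7 events lay 55 and 79 bp downstream, against 30 and 33 bp for ORC in G1 and 59 and 48 bp in G2. ARS200 had 3 events in each MCM2-7 list, and the others lay at 44 and 54 bp in replicate 1 and at 42 and 43 bp in replicate 2. Unique words made up 0.948% of the surroundings of the ARS1001 events and 66.2% at ARS200. The 61 bp window of ARS200 nevertheless occurs at 2 places in R64 exactly and at 15 with up to 3 mismatches, and that of ARS1001 at 2 places in either count. A copy of the ARS1001 window identical over 201 bp lies at position 293 of chromosome IX and had no event, so the reads of these ends cannot be told apart.

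Among the X elements, ARS902 had places of 98.0 and 98.0 for MCM2-7, 81.4 and 98.6 for ORC in G1, and 63.3 and 43.3 for ORC in G2. ARS1002 had 98.3 and 97.1, 56.4 and 98.8, and 54.7 and 57.6. Both were near the top for MCM2-7 in both replicates and lower for ORC in G2. Their windows of 201 bp are identical, as are those of ARS400 and ARS1025, and none of their 40 bp words around an event is unique for ARS902, ARS1002 and ARS1025. Values within each pair therefore do not measure separate ends. The first-listed events of ARS902 and ARS1002 lay at the same base relative to the consensus in MCM2-7 replicate 2 (28 bp upstream) and in ORC G1 replicate 2 (27 bp downstream), but not in replicate 1, where they lay at -5 against -24 bp for MCM2-7 and at 15 against 173 bp for ORC in G1. In the G2 lists they lay 194 and 195 bp downstream at ARS902 against 5 bp at ARS1002.

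ARS824 and ARS1632, both with single-copy windows, stood high for ORC in G1. ARS824 had 92.6 and 94.2 in G1 and 45.6 and 85.1 in G2, with 59.4 and 91.7 for MCM2-7. ARS1632 had 88.8 and 93.3 in G1 and 73.1 and 88.2 in G2, with 82.3 and 42.7 for MCM2-7. The G1 places of both loci were above their G2 places in every list, while MCM2-7 replicates differed by over 30 places at each. ARS736, another single-copy X element, had 96.6 and 84.3 in G1 and 87.1 and 69.0 in G2, which overlap, and 32.6 and 53.6 for MCM2-7. The other 10 X elements had MCM2-7 places between 52.9 and 97.7 and ORC places between 45.3 and 98.0 in G1 and between 16.4 and 82.4 in G2. Of these, TEL16L 6972 has a copy identical over 201 bp at position 1083965 of chromosome XV, which had no event.

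Outside telomeric regions, 5 loci stood low in most lists. ARS103, in SEO1, had places of 5.14 and 2.87 for MCM2-7, 21.8 and 24.1 for ORC in G1 and 9.74 and 34.1 in G2. TEL09R 6934, between the protease gene YPS6 and PAU15, had 10.9 and 24.1, 7.45 and 6.67, and 5.73 and 33.4. Neither had a full consensus match, with 9 and 10 of 11 positions matched. ARS1024, between the sorbitol dehydrogenase gene SOR1 and the alpha-glucoside permease gene MPH3, had 28.3 and 14.9, 30.7 and 3.48, and 17.8 and 12.4. A copy of its window identical over 201 bp lies at position 8596 of chromosome IV and had no event. TEL01L 6212 had 26.0 and 8.60, 36.7 and 6.09, and 14.3 and 35.9. ARS503 had 7.14 and 6.02 for MCM2-7, 41.8 and 50.1 for ORC in G1, and 6.30 and 7.43 for ORC in G2, and was the one locus among these 5 whose ORC G1 places were both above its other places. ARS802, between COS8 and the siderophore transporter gene ARN2, was the exception in this class, with 67.1 and 60.2, 80.5 and 78.6, and 65.0 and 67.2.

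ORC in G1 was then compared with ORC in G2 at each locus. At all 15 X elements the mean place was higher in G1 than in G2, by 9.73 to 49.99 places with a median of 29.2, whereas 49.8% of the 321 loci with events in all lists were higher in G1 and the median difference over these was -0.06. Of the 15, 11 have windows with copies of up to 3 mismatches in R64, so they do not measure 15 separate ends. The 4 with single-copy windows were higher in G1 by 10.4 to 49.99 places. Both Y' loci went the other way, by 9.46 and 17.3 places, and the 6 loci outside telomeric regions had a median difference of 1.51. In 11 of the 23 terminal loci both G1 places were above both G2 places, against a background of 25.2% of 321 loci. The reverse held at 0 of 23, against 20.6%. The 11 were the X elements ARS102, ARS201, ARS400, ARS801, ARS824, ARS902, ARS1025, ARS1632 and TEL13L 6124, and ARS503 and ARS802 outside telomeric regions.

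Single loci did not pass the test over all loci. limma called 0 of 23 terminal loci and 0 of 321 loci (0% in either direction) at an adjusted p under 0.05. At an unadjusted p under 0.05, 8 terminal loci were higher in G1 and 0 were lower, against 10.9 and 5.61% of all loci. The smallest adjusted p of a terminal locus was 0.113, shared by ARS503, ARS801 and TEL13L 6124. TEL13L 6124 had G1 places of 57.3 and 88.1 and G2 places of 28.7 and 18.3, a difference of 49.3 ± 12.2 places (SE, limma). ARS801 had 79.9 and 79.4 against 38.1 and 33.7, a difference of 43.8 ± 10.1, and ARS503 differed by 39.1 ± 9.89. With up to 3 mismatches, the 61 bp window of TEL13L 6124 occurs at 12 places in R64 and those of ARS801 and ARS503 at 9 each. A copy of the TEL13L 6124 window identical over 201 bp lies at position 812422 of chromosome II and had no event, so the reads of these 2 ends cannot be told apart. In data simulated on this comparison, the fit found 79.5% of loci changed by 40 places and 9.5% of those changed by 20. The simulation changed most of the 321 loci and gave every locus the same spread (SD 13.3 places). With fewer changed loci the adjustment is harder to pass, so these shares need not hold for the real lists. The 4 median places of all terminal loci, 63.9 and 84.3 in G1 against 47.9 and 39.6 in G2, did not overlap, with a difference of the means of 30.4 places. For the 4 single-copy X elements the difference was 24.0 places. By score percentile the difference was 13.7, and with unique surroundings only it was 11.03.

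**Figure D4:**
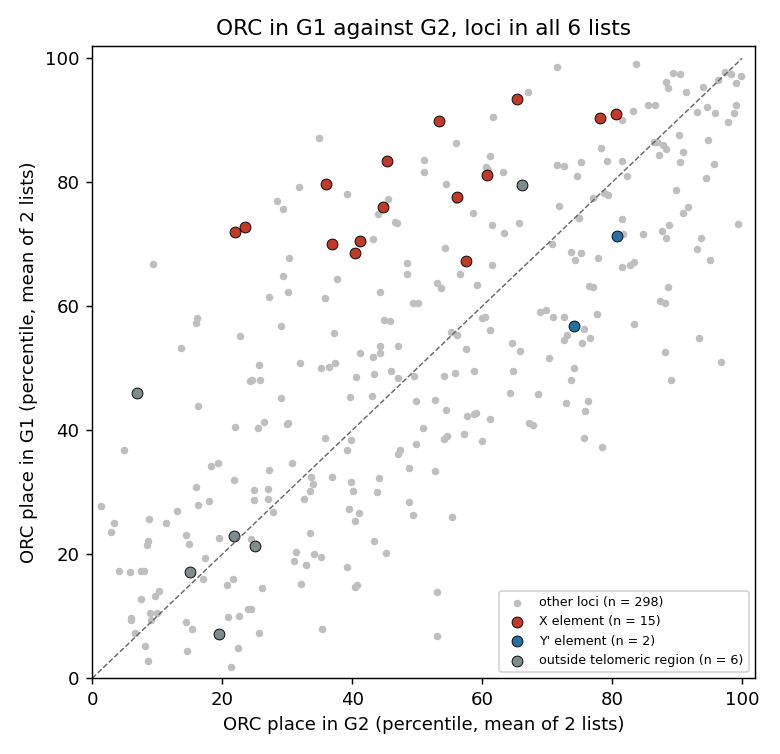
Mean place of ORC in G1 (y axis) against G2 (x axis) over 2 lists each, in percentiles, for the 321 loci with events in all 6 lists. The dashed line marks equal places. All 15 X-element loci lie above the line and both Y' loci lie below it.

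MCM2-7 and ORC were compared within G1 in the same way, with the ORC G1 lists that also served in the comparison with G2. The median place of terminal loci differed by 1.27 places between MCM2-7 and ORC, less than the spread between the replicates of either. Places of MCM2-7 were above those of ORC in all lists at 5 of 23 loci, against 28.3% of 321, and below at 6 of 23, against 34.3%. limma called 1 terminal locus higher for MCM2-7 (37 of 321 loci, 11.5%) and 2 lower (36 of 321, 11.2%), shares near those of the genome. ARS200 was higher for MCM2-7 by 43.1 ± 13.2 places (SE, limma, adjusted p = 0.0408). ARS736 was lower by 47.4 ± 11.8 (adjusted p = 0.0191, MCM2-7 places 32.6 and 53.6 against 96.6 and 84.3) and ARS503 by 39.4 ± 9.89 (adjusted p = 0.0192). ARS1001 was higher by 28.6 ± 10.3 places with an adjusted p of 0.0688, and so did not pass. These calls depended on single lists. None of the 3 was called without either MCM2-7 list (0 terminal loci), the higher call was lost without either ORC G2 list and in a fit to the 4 G1 lists alone (0 higher, 2 lower), and both lower calls were lost without ORC G1 replicate 2 (2 higher, 0 lower). Without ORC G1 replicate 1, 1 was higher and 1 lower.

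Events could be placed along the X element to the base, since the consensus match has the same position in each. Of the 15 windows, 11 have copies of up to 3 mismatches in R64, and a read that matches several copies equally well is placed at 1 of them. The counts of loci below are therefore not counts of separate ends. In ORC G1 replicate 2, the event nearest to the match lay 5 to 9 bp downstream of its centre at 15 of 15 loci, with a median of 7 bp. In ORC G1 replicate 1 the median was also 7 bp, with a range from -10 to 26 bp, where negative values are upstream of the centre on the T-rich strand. In G2 the medians were 6 and 6 bp with ranges from -10 to 27 and from -99 to 82 bp. For MCM2-7 they were -6 and -3 bp, with ranges from -17 to 22 and from -30 to 33 bp. The nearest helicase event was upstream of the centre at 13 of 15 loci in replicate 1 and at 8 of 15 in replicate 2. The first-listed event of a locus, which was not chosen by its distance, lay at medians of -5 and -8 bp for MCM2-7, 15 and 7 bp for ORC in G1, and 30 and 25 bp for ORC in G2. At 9 of 15 and 13 of 15 X elements the first-listed MCM2-7 event was upstream of the first-listed ORC G1 event of the same replicate number, with medians of -13 and -16 bp. First-listed events lay within 50 bp of the match at 13 and 14 loci for MCM2-7, at 13 and 15 for ORC in G1, and at 9 and 6 for ORC in G2.

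**Figure D5:**
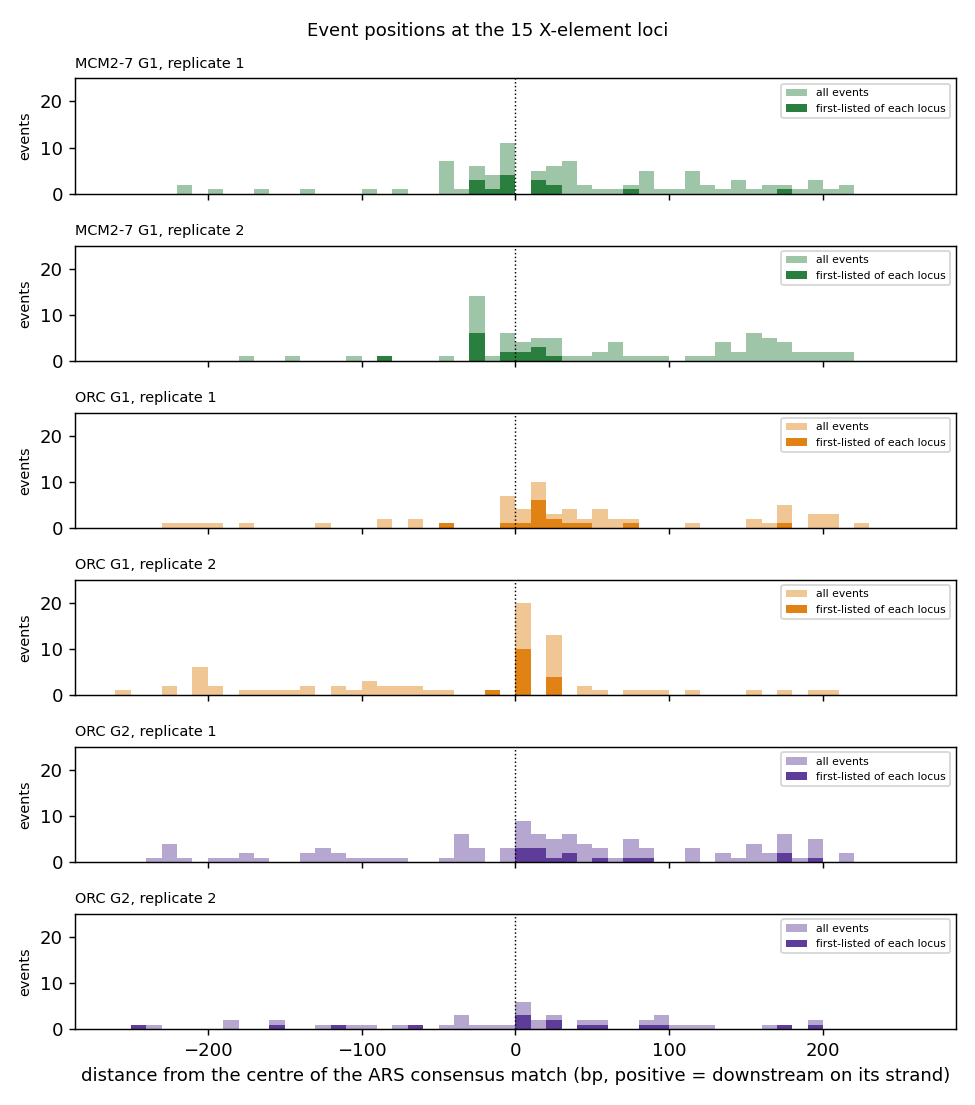
Events at the 15 X-element loci by distance from the centre of the ARS consensus match (x axis, bp in bins of 10, positive downstream on the T-rich strand), as counts per bin (y axis) in each list. Pale bars are all events and dark bars the first-listed event of each locus. In ORC G1 replicate 2 the events gather just downstream of 0, and in the G2 lists they are spread more widely.

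Over all terminal loci, the first-listed MCM2-7 event lay a median of 5 and 15 bp from the nearest ORC G1 event of the same replicate number, against 16 and 19 bp at the other loci, a difference of -11 and -4 bp (2 values, no test). More ORC G1 events were listed per terminal locus, as given next, and the nearest of more events tends to lie closer. Terminal loci had 5.30 and 4.78 MCM2-7 events per locus, 4.09 and 4.39 ORC events in G1 and 6.52 and 2.78 in G2, against 5.67 and 4.93, 3.29 and 3.96, and 6.20 and 2.65 elsewhere. The difference was 0.195 ± 0.418 events (SD, n = 6 lists, exact two-sided sign-flip permutation test, p = 0.344, adjusted 0.344). Recurrence between replicates was counted in each of the 3 conditions. For MCM2-7, 83.6% of terminal events had an event of the other replicate within 50 bp (95% Wilson interval 78.3 to 87.8), against 89.7% elsewhere. For ORC this share was 66.7% (59.8 to 72.9) against 76.9% in G1, and 57.5% (50.8 to 63.9) against 69.1% in G2. The mean difference was -9.28 ± 2.89 percentage points (SD, n = 3 conditions, exact two-sided sign-flip permutation test, p = 0.25, the smallest that 3 conditions allow).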

How the data were processed

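ChIP-Exo event lists of MCM2-7 in G1, ORC in G1 and ORC in G2 were used, 2 replicates each. Per the study's methods, the R64 genome served for alignment with Bowtie2 2.3.5 under its defaults, and ChExMix was run on every replicate by itself with tRNA genes and rDNA masked. Under these defaults, a read that matches several copies equally well is placed at 1 of them. The deposited score is the integer that the authors' caller gave each event, limited to 1000, and it was ranked only within a list. The deposited positions are single bases. The lists hold no read counts, and the study gives a typical and a minimum number of reads but none per library, so the depth behind each list is unknown, and duplicate removal is not given in the sources used here.

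Terminal events were those at positions up to 10000 or within 10000 bp of the far end. Events of all lists were joined over gaps up to 400 bp. Loci were named by an annotated ARS within 500 bp. Uniqueness was the share of 40 bp words within 100 bp of an event that occur once in R64. Places of loci with events in all 6 lists were tested with limma 3.58.1 in R 4.3.3 over 3 groups, with Benjamini-Hochberg adjustment over 321 loci. Single values per list were tested with exact sign-flip permutation. The design also gave exact tests for median places, which are not printed because they summarise selected members. Values in all lists are printed for the 5 terminal loci with the highest and the 5 with the lowest mean place and for those called by limma, besides ones said to be picked later. On simulated lists, 8 of 8 values were recovered by the scripts (Python 3.11.15 with SciPy 1.17.1, NumPy 2.4.6, Matplotlib 3.10.9 and pandas 2.3.3). The alternatives were other gaps, events at or above the median score, unique surroundings, score percentiles, normal scores, fits to 4 lists, a replicate block, other sharing distances and leaving out replicates. Splits by class and by copy number, and counts of loci with non-overlapping places with a list left out, were chosen after seeing the data. The members and lists were chosen with earlier results of these data known.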

Additional observations from a re-analysis of the deposited data

Results flagged for a closer look

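Terminal loci stood above the other loci in both ORC G1 lists and below them in both ORC G2 lists. The differences in median place were 14.9 and 36.2 in G1 and -2.58 and -11.1 in G2, and their means were 32.4 places apart. The share of events at the cap behaved likewise, with terminal minus other shares of 13.1 and 24.8 percentage points in G1 and -6.77 and -2.46 in G2, which is 23.6 points apart. Events per locus were fewer at terminal than at other loci in both MCM2-7 lists (-0.366 and -0.150) and more in both ORC G1 lists (0.796 and 0.435), so that MCM2-7 was lower by 0.874 events, a difference of -0.874. None of these 3 differences between groups was itself tested.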

How the results depend on the processing

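With unique surroundings only, where 4 terminal loci remained in all lists, 3 of them outside telomeric regions, density turned to -1.28 (log2), the share at the cap to -9.28 points, place to -26.7, events per locus to -1.92 and MCM2-7 minus ORC in G1 to -16.7 places, and 0 terminal loci were called between MCM2-7 and ORC, as when the lower-scored part of each list, below its median, was dropped (0, with 14 terminal loci tested). The cause was not tested beyond these counts. By score percentile, where loci at the cap are tied, place turned to -2.24 and MCM2-7 minus ORC to -11.6. Normal scores called 5 terminal loci between MCM2-7 and ORC, against 3. Restricting place to single-copy X elements gave 28.2, and to loci outside telomeric regions -28.4.

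Leaving out 1 replicate at a time, density stayed between 1.43 and 1.51, with p = 0.0625, the smallest that an exact sign-flip permutation test over 5 lists allows. MCM2-7 minus ORC ran from -8.96 to 11.5 places (-1.92 without MCM2-7 replicate 1 and -8.96 without ORC G1 replicate 1), and the loci called there from 0 to 2. ORC G1 minus G2 ran from 20.2 to 40.6 places, and the loci above in every list numbered 14 to 16 with fewer lists to compare, against 34.3 to 43.0% of all loci.

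Deviations in place of same-numbered lists correlated at 0.0501, -0.0691 and -0.00118 over 321 loci, so places showed no pairing by replicate number. A shared culture or batch need not change the order of loci, so these values cannot tell whether same-numbered libraries were paired. With the replicate number as a block, 0 and 3 terminal loci were called as before, and the median differences were 30.4 and 1.27 places. A fit to the 4 G1 lists alone called 0 higher and 2 lower. Values that reversed, moved or grew stronger under alternatives other than a block or a left-out replicate are given above. The 37 others were set apart because they had not changed in this way, so their number does not measure stability. By direction of the calls 36 of them were kept, and the remaining value is the fit to the 4 G1 lists alone.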
